A study of Mus musculus with 18 samples.

Results

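The genes of Hox paralog groups 4 and 5 are Hoxa4, Hoxb4, Hoxc4, Hoxd4, Hoxa5, Hoxb5 and Hoxc5. They were chosen by name, and they make up 7 of the 39 Hox genes and 7 of the 49939 genes in the RefSeq annotation of the mouse. Each was located on the mm10 genome, and the peaks of the histone mark H3K27me3 that overlapped the gene span with 1 kb at each end (its window) were read from the list of each library. The percent of the window that peaks covered is called the percent covered, and a gene with at least 1 bp of a peak in its window is called marked. H3K27me3 had been profiled by CUT&Tag, in which an antibody against the mark brings a transposase to it and the DNA cut there is sequenced, in single headfolds, the head end of the embryo at the neural plate stage.

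All embryos were mouse embryos at embryonic day 8.5 with the genotype Gulo-/-, which removes the last enzyme of vitamin C synthesis, so that the mark was compared between diets that did or did not supply vitamin C. The 4 groups were B6 without vitamin C, B6 with vitamin C (3.3 g/l, given in drinking water), 129 without vitamin C and 129 with vitamin C at the same dose. Each group had 3 libraries from 2 female and 1 male embryos, numbered 1, 2 and 4 in B6 and 1, 2 and 3 in 129. All 3 embryos of the B6 group given vitamin C came under 1 pregnancy code, and the serial numbers in the labels' library names were all higher for B6 than for 129. The labels name no batch, and any difference that goes with these serial numbers cannot be told apart from the background. No group had a Gulo wild-type reference in these lists, and the Gulo gene itself was marked in 0 of 12 libraries, which is no check of the deletion.

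Hox genes encode homeodomain transcription factors that give cells their position along the head-to-tail axis, and their order within each cluster follows the order of their expression borders. Groups 4 and 5 have their anterior borders in the posterior hindbrain and the cervical cord, behind most of the headfold. H3K27me3 is laid down by Polycomb repressive complex 2 and covers Hox genes where they are silent or not yet active. A headfold is a mixture of cells, so that a smaller share of cells carrying the mark and a shorter marked stretch in each cell cannot be told apart.

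The start regions of 4 members are shown because a promoter could be covered or left free while the rest of the window was not, and the data differed between members on that point. The sequences are from RefSeq (GRCm38.p6, the assembly that mm10 stands for), run 5′ to 3′ on the gene's strand from 250 bases before to 50 bases after the start, and carry CpG dinucleotides in capitals. They lie at chr6:52204538-52204837 on the minus strand for Hoxa5, and on the plus strand at chr11:96318017-96318316 for Hoxb4, chr15:103034145-103034444 for Hoxc4 and chr2:74721728-74722027 for Hoxd4. Hoxa4, Hoxb5 and Hoxc5 are named only.
Hoxa5: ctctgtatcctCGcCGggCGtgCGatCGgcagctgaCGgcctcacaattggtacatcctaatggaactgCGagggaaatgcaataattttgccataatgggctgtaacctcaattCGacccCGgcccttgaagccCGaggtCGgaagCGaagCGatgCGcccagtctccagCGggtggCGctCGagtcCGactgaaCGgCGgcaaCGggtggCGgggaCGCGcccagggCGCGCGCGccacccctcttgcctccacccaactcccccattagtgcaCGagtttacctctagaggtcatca
Hoxb4: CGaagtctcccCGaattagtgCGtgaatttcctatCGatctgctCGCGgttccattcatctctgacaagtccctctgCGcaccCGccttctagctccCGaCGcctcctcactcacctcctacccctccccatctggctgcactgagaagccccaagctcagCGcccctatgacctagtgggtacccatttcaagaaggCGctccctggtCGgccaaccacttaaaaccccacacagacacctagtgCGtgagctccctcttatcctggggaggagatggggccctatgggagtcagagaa
Hoxc4: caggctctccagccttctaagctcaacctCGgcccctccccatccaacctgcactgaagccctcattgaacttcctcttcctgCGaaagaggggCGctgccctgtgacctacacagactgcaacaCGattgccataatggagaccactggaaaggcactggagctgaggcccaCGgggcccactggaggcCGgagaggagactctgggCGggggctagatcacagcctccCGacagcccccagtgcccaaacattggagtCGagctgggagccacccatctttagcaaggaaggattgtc
Hoxd4: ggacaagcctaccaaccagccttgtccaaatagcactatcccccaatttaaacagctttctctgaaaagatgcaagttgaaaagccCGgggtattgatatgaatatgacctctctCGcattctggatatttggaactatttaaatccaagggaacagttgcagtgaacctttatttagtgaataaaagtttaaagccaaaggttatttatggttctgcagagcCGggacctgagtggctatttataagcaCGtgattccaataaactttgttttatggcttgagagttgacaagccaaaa

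These 4 start regions differed in base composition. Hoxa5 held 29 CpG dinucleotides at a GC content of 61.7%, and 12.9% of the 32851 promoters in the table held as many. Hoxb4 held 14 at 58%, Hoxc4 held 9 at 60.3% and Hoxd4 held 4 at 39.7%, beside a median of 7 CpG and 52.7% GC over all promoters. The Hoxa5 start region was thus the richest of the 4 in CpG, and that of Hoxd4 the poorest, below the median. A Hox-PBX motif (TGATNNAT, either strand) was found in none of the 4 and in 8.85% of all promoters. A TATAAA motif was found once, on the minus strand at Hoxd4, and in 13.6% of all promoters on either strand.

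The Hoxc4 start region lies inside the gene span (chr15:103018097-103036856, from 6 transcripts), whereas those of Hoxa5, Hoxb4 and Hoxd4 lie at the start of theirs. This Hoxc4 region of 300 bp was fully covered by peaks in 12 of 12 libraries. The Hoxc4 window, of 20760 bp, was fully covered in 6. The Hoxa5 start region was fully covered in 11, all but replicate 1 of B6 without vitamin C. The Hoxb4 start region was fully covered in 9 and untouched in replicate 1 of B6 without vitamin C, replicate 1 of B6 with vitamin C and replicate 2 of 129 without vitamin C. The Hoxd4 start region was also fully covered in 9, which were 3 of 6 B6 libraries and 6 of 6 129 libraries, and a peak reached 23.7% of it in replicate 2 of B6 with vitamin C. The number of libraries did not follow the CpG number over these 4 start regions. That of Hoxc4, the internal one, held 9 CpG and was covered in all 12, and that of Hoxb4 held 14 and was covered in 9.

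The microRNA genes next to or inside members are shown with their mature sequences because they lie in, or at the edge of, the members' windows. Mir10a lies just upstream of Hoxb4, Mir10b inside the span of Hoxd4 and Mir615 inside that of Hoxc5. The capitals mark the seed, bases 2 to 8, which pairs with target messengers. The sequences are from RefSeq (GRCm38.p6), at chr11:96317186-96317208, chr2:74726074-74726096 and chr15:103014969-103014990, all on the plus strand.
miR-10a-5p: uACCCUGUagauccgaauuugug
miR-10b-5p: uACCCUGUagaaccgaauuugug
miR-615-3p: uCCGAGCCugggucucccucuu

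The miR-10a-5p and miR-10b-5p sequences share their seed and differ by 1 substitution, U12A, counted from 1 at the 5′ end with the miR-10a-5p base first, while miR-615-3p has a seed of its own. The Mir10b hairpin was fully covered in 11 of 12 libraries, all but replicate 1 of B6 without vitamin C. The Mir615 hairpin was likewise fully covered in 11, all but replicate 2 of B6 without vitamin C. The Mir10a hairpin was fully covered in 7 and untouched in the 3 B6 libraries without vitamin C, in replicate 1 of B6 with vitamin C and in replicate 2 of 129 without vitamin C. Of the pair that shares a seed, the copy at Hoxd4 thus lay under peaks in more libraries than the copy at Hoxb4.

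The 12 lists held 748 to 4726 peaks that covered 3.58 to 31.7 Mb, and 2.97% to 17.1% of 21883 protein-coding genes were marked per library. The number of reads is not part of the lists, so depth is unknown. Replicate 1 of B6 without vitamin C and replicate 2 of B6 with vitamin C stood apart by short peaks, with median widths of 1322 and 1410 bp beside 3930 to 8449 bp in the other 10. The lists covering least were those of replicates 1 and 2 of B6 without vitamin C (3.58 and 4.15 Mb) and replicate 2 of 129 without vitamin C (6.97 Mb). A repressive mark is no measure of expression, so the labelled tissue could be set beside markers only in part. Over all protein-coding genes, 5.93% were marked in at least 10 libraries. Of 8 anterior neural plate markers 5 were marked in at least 10 libraries and Hesx1 in 0, of 6 posterior axis and paraxial mesoderm markers 3 (Tbx6, Msgn1 and Meox1 in 0), of 6 surface ectoderm markers 1 (Krt18 in 0) and of 6 endoderm and heart markers 6.

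All 7 members carried a peak in 10 or more of the 12 libraries, which held for 5.93% of protein-coding genes. Hoxc4, Hoxd4, Hoxa5, Hoxb5 and Hoxc5 were marked in all 12, beside 2.18% of protein-coding genes, Hoxa4 in 11 and Hoxb4 in 10. The exceptions were replicate 2 of B6 without vitamin C for Hoxa4, and replicate 1 of B6 without vitamin C and replicate 1 of B6 with vitamin C for Hoxb4. All 7 were fully covered in at least 6 libraries, beside 1.11% of protein-coding genes and 9.89% of the genes covered in at least 2 libraries. In every 129 library all 7 members were marked.

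**Figure D1:**
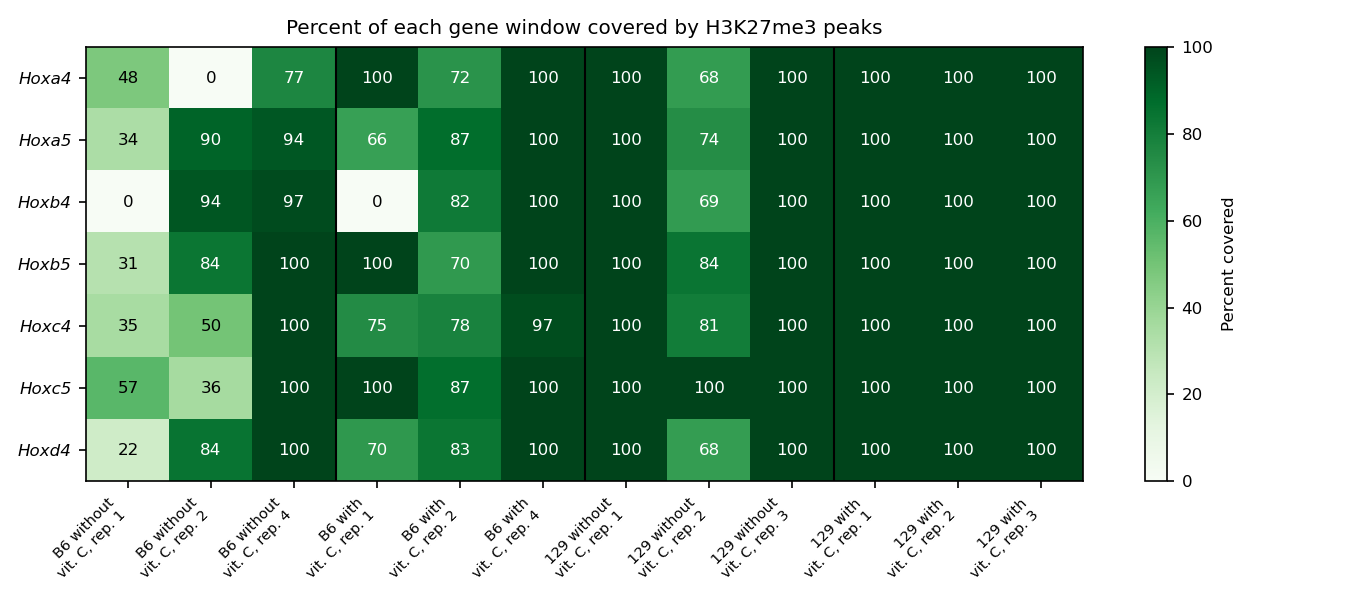
Percent of each gene window (the gene span with 1 kb at each end) covered by H3K27me3 peaks, by gene (rows) and library (columns, in groups of background and vitamin C), with the value printed in each cell. The 3 libraries of 129 with vitamin C were at 100% for all 7 genes, and the 3 cells at 0% lie in B6 libraries.

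Among the group 4 genes, Hoxb4, known for its part in blood stem cells and the hindbrain, had the lowest mean and the widest spread. Hoxb4 (chr11:96318267-96321638, within the span of Hoxb3) was covered by 0%, 94.4% and 97.3% in replicates 1, 2 and 4 of B6 without vitamin C and by 0%, 81.8% and 100% in those of B6 with vitamin C. It was covered by 100%, 68.6% and 100% in replicates 1, 2 and 3 of 129 without vitamin C and by 100% in each of the 3 libraries of 129 with vitamin C. Its values were thus either at 0% or at 68.6% and above, with both zeros in B6 and 1 in each diet. Both B6 libraries at 0 came from the male embryos of their groups, whereas both male 129 embryos had 100%; sex was not tested. The mean over 12 libraries was 78.5 ± 37.9% (SD).

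Hoxa4, which patterns cervical vertebrae, lies within the span of Hoxa3 at chr6:52189682-52191703. It was covered by 47.6%, 0% and 76.6% in B6 without vitamin C, by 100%, 71.7% and 100% in B6 with vitamin C, by 100%, 68.3% and 100% in 129 without vitamin C and by 100% in each library of 129 with vitamin C. No B6 library without vitamin C reached full cover, while 2 of 3 with vitamin C did, and the highest value without vitamin C (76.6%) lay above the lowest with it (71.7%). The mean was 80.4 ± 30.8% (SD, n = 12). The B6 library with a peak list lacking Hoxa4 had Hoxa5, its neighbour, covered by 90.2%.

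Hoxc4, expressed in the cervical cord, has the longest span of the set (18760 bp, chr15:103018097-103036856, from 6 RefSeq transcripts). Its window was covered by 35.0%, 49.8% and 100% in B6 without vitamin C, by 74.8%, 78.3% and 97.3% in B6 with vitamin C, by 100%, 80.7% and 100% in 129 without vitamin C and by 100% in each library of 129 with vitamin C. The B6 libraries thus spread between 35.0% and 100%, and 5 of 6 lay below 100% against 1 of 6 in 129. The mean was 84.6 ± 22.2% (SD, n = 12). Its window overlaps that of Hoxc5 and the long noncoding RNA Gm30528, so these genes share peaks.

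Hoxd4, whose neural enhancer responds to retinoic acid, lies within the span of Hoxd3 at chr2:74721978-74729160 and holds Mir10b. It was covered by 21.7%, 84.1% and 100% in B6 without vitamin C, by 69.8%, 83.4% and 100% in B6 with vitamin C, by 100%, 67.8% and 100% in 129 without vitamin C and by 100% in each library of 129 with vitamin C. Replicate 1 of B6 without vitamin C was the low value, and the other 11 lay between 67.8% and 100%. The mean was 85.6 ± 23.6% (SD, n = 12).

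Of the group 5 genes, Hoxa5 shapes the respiratory tract and the neck-to-thorax boundary of the skeleton. Hoxa5 (chr6:52201754-52204587, within the spans of Hoxa3 and the noncoding RNA Hoxaas3) was covered by 33.9%, 90.2% and 93.8% in B6 without vitamin C, by 66.5%, 86.7% and 100% in B6 with vitamin C, by 100%, 73.8% and 100% in 129 without vitamin C and by 100% in each library of 129 with vitamin C. Full cover was reached in 1 of 6 B6 libraries and in 5 of 6 of 129. The mean was 87.1 ± 20.2% (SD, n = 12).

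Hoxb5, which acts in the neural crest of the gut, lies within the span of the noncoding RNA Hoxb5os at chr11:96303512-96306121. It was covered by 30.7%, 83.6% and 100% in B6 without vitamin C, by 100%, 69.5% and 100% in B6 with vitamin C, by 100%, 84.0% and 100% in 129 without vitamin C and by 100% in each library of 129 with vitamin C. In replicate 1 of B6 with vitamin C, where its cluster neighbour Hoxb4 was at 0%, Hoxb5 was fully covered. The mean was 89.0 ± 20.9% (SD, n = 12).

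Hoxc5, which acts with Hoxa5 in the motor neurons of the diaphragm, lies at chr15:103014008-103017429 and holds Mir615. It was covered by 56.5%, 35.8% and 100% in B6 without vitamin C, by 100%, 86.6% and 100% in B6 with vitamin C and by 100% in each of the 6 libraries of 129. Hoxc5 was the member fully covered in most libraries, 9 of 12, and the one with no partial value in 129. The mean was 89.9 ± 21.3% (SD, n = 12).

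In order of mean percent covered the members ran Hoxc5, Hoxb5, Hoxa5, Hoxd4, Hoxc4, Hoxa4 and Hoxb4, with the 3 group 5 genes above the 4 group 4 genes. No neighbours in this order differed beyond their spread, since the mean within-library differences were 0.914 to 4.29 percentage points and their SDs 4.85 to 44.4 points. In the clusters that hold both groups, Hoxa5 exceeded Hoxa4 in 4 libraries and fell below it in 2, with a mean difference of 6.73 ± 29.3 points (SD). Hoxb5 exceeded Hoxb4 in 4 and fell below it in 2 (10.5 ± 30.4 points), and Hoxc5 exceeded Hoxc4 in 5 and fell below it in 1 (5.26 ± 11.3 points). In each cluster the other 6 libraries had equal values, and each mean difference was smaller than its SD.

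Where cover was partial, the libraries shared the same open stretches in part. At Hoxb4 the stretch covered in fewest libraries (chr11:96317267-96317410, 144 bp) lay at the upstream edge of the window, over the end of the Mir10a hairpin, and was uncovered in 5 libraries. At Hoxa5 a stretch of 142 bp beyond the 3′ end of the gene (chr6:52200754-52200895) was covered in 1 of 6 B6 libraries and in 6 of 6 129 libraries. At Hoxc4 the least covered stretch, chr15:103029640-103029824 (185 bp), was uncovered in 6 libraries, 5 of B6 and 1 of 129.

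Each of the 5 genes marked throughout had a stretch of its window that was covered in all 12 libraries. At Hoxc4 the longest was chr15:103033741-103035719 (1979 bp), which holds the start region shown above. The others were 1482 bp at Hoxc5 (chr15:103016948-103018429), 1429 bp at Hoxd4 (chr2:74724133-74725561), 990 bp at Hoxa5 (chr6:52202482-52203471) and 194 bp at Hoxb5 (chr11:96304034-96304227). The Hoxc5 stretch runs past the end of that gene (chr15:103017429) into the Hoxc4 gene and stops at the edge of the Hoxc5 window, which sets its length. Many of these borders were set by the short peaks of replicate 1 of B6 without vitamin C. The Hoxd4 stretch is 1 peak of that library, and those at Hoxc4, Hoxc5 and Hoxa5 begin where 1 of its peaks begins. The longest stretch with the most cover was shared by 10 libraries at Hoxb4 (chr11:96318954-96321054) and by 11 at Hoxa4 (chr6:52188749-52189370).

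**Figure D2:**
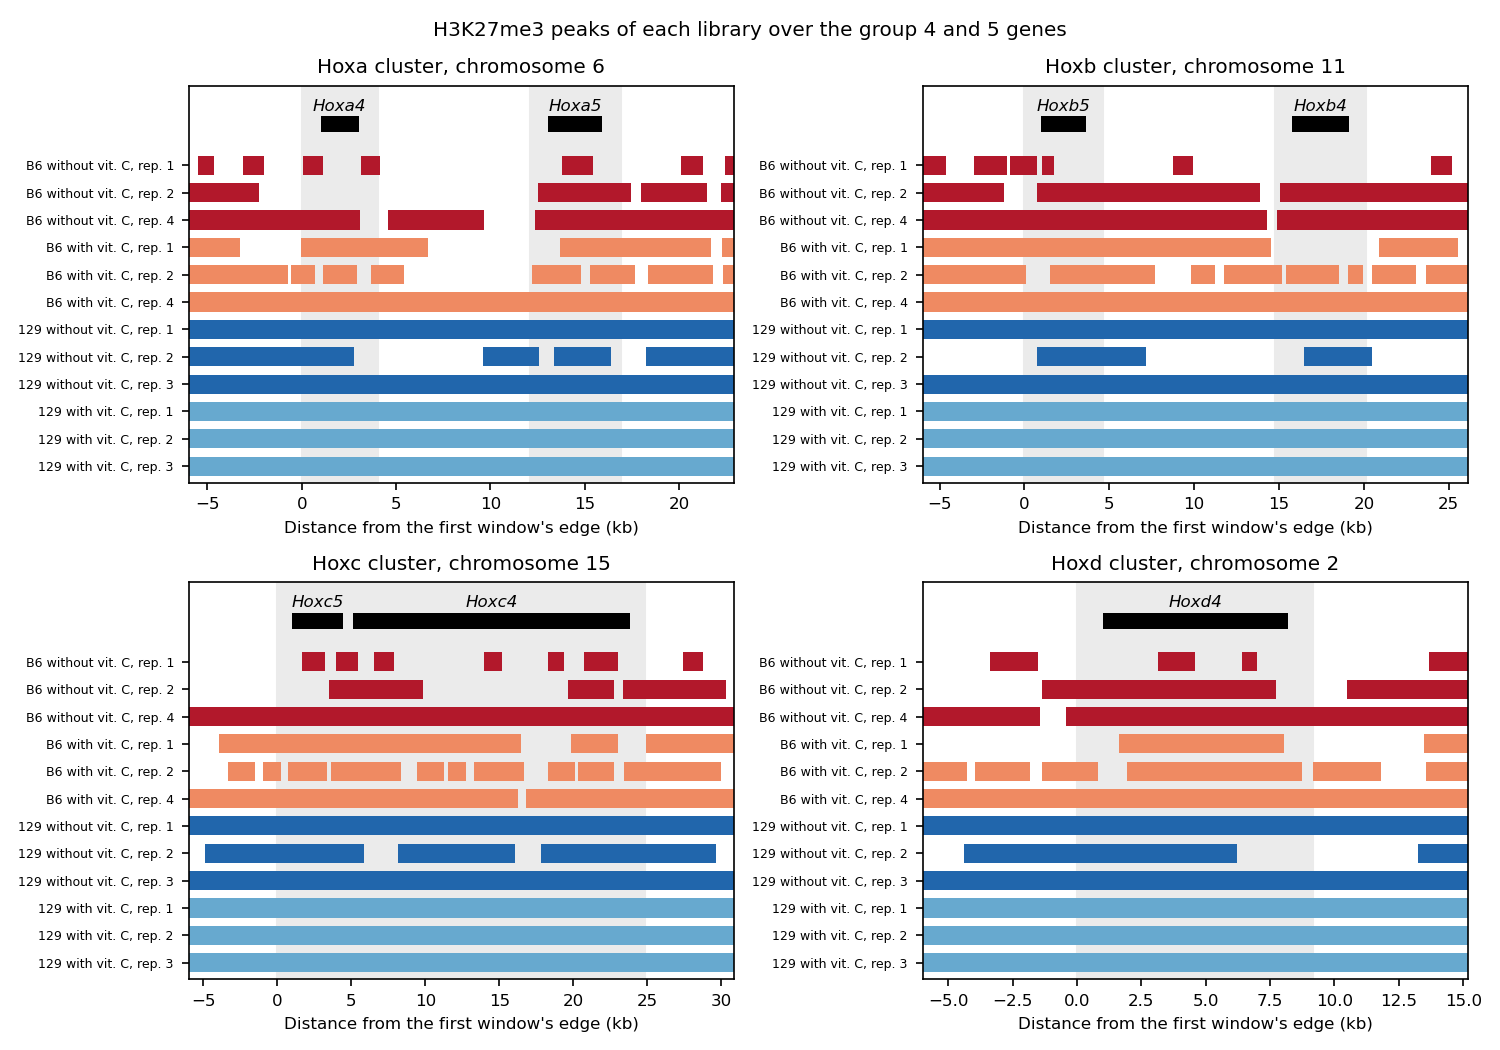
Peaks of each library (coloured bars, 1 row per library) along the stretch around the members in each of the 4 clusters, with member genes as black bars and their windows shaded; the horizontal axis is the distance in kb from the edge of the first window. The 3 129 libraries with vitamin C have unbroken cover over the stretches drawn, and most B6 libraries have several separate peaks.

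In 129 the members mostly lay inside single peaks of the size of a Hox cluster, and in B6 mostly under shorter ones. The width of the strongest peak at each member (the one with the largest total signal) had a median over members of 1.60, 7.72 and 37.9 kb in replicates 1, 2 and 4 of B6 without vitamin C and 14.2, 4.76 and 116.0 kb in those of B6 with vitamin C. It was 131.3, 10.6 and 133.3 kb in replicates 1, 2 and 3 of 129 without vitamin C and 136.7, 112.8 and 108.2 kb in those of 129 with vitamin C. Widths above 100 kb were thus found in 1 of 6 B6 libraries and 5 of 6 129 libraries. The median width of all peaks in a list varied in the same libraries, from 1.32 kb in replicate 1 of B6 without vitamin C to 8.45 kb in replicate 1 of 129 with vitamin C, and its part in the widths at members was not tested.

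A single peak spanned both Hoxa5 and Hoxa4, 14.9 kb from end to end, in 6 libraries, 1 of B6 and 5 of 129. The same counts held for Hoxb5 with Hoxb4 (18.1 kb) and for Hoxc5 with Hoxc4 (22.8 kb). By diet, Hoxa5 with Hoxa4 and Hoxb5 with Hoxb4 were spanned in 2 of 6 libraries without vitamin C and 4 of 6 with it, and Hoxc5 with Hoxc4 in 3 of 6 in each diet. These genes therefore often shared 1 peak, and their values in such a library are not independent of each other.

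Total signal, the sum of signal within a peak, was used only as a rank within a list, given as the percentile of the list's peaks. The median percentile of the strongest peak over the libraries that had one was 99.4 to 99.8 for the 7 members. In replicate 3 of 129 with vitamin C the peak over Hoxc4 and Hoxc5, 144.9 kb wide, ranked 1 of 2533. The lowest percentile was 21.9, at Hoxd4 in replicate 1 of B6 without vitamin C, whose peaks at members were 1.01 to 2.31 kb wide. The same peaks were also ranked by maximum signal, which does not add up over the width. Their median percentiles were then 84.1 to 92.5, lower than by total signal for all 7.

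**Figure D3:**
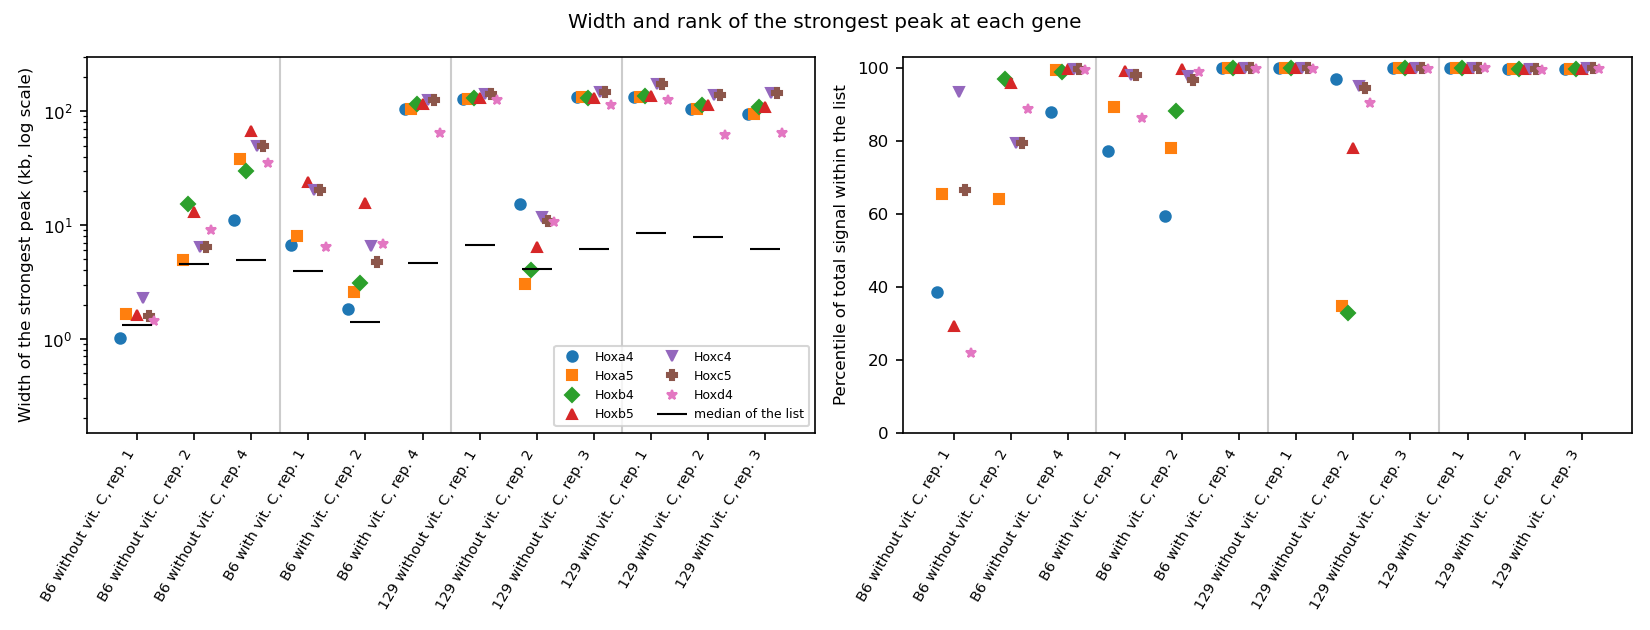
Width of the strongest peak at each gene in kb (left, log scale; black lines are the median width of all peaks of the list) and its percentile of total signal within the list (right), by library. In the 3 129 libraries with vitamin C widths run from 62.2 to 172.3 kb and percentiles lie above 99, and in replicate 1 of B6 without vitamin C widths stay between 1.01 and 2.31 kb.

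Cover was compared between diets by a two-sided exact permutation test that reassigned diets among the libraries of a background, over the 4924 genes covered in at least 2 libraries, with Benjamini-Hochberg adjustment over all of them. Mean percent covered was lower without than with vitamin C at all 7 members, which was also so for 83.9% of all genes tested, and 0 of 7 members passed the adjusted threshold of 0.05 (0.0% of all genes did). At an unadjusted p under 0.05 the members' count was again 0 of 7, and 2.07% of all genes passed. The median difference, without minus with vitamin C, was -13.3 percentage points over the members and -3.53 over all genes tested. The median of the mean percent covered was 85.6 over the members and 12.0 over all genes tested. Genes with little cover can differ by few points, so the 2 median differences are not on an equal footing.

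Hoxa4 had the diet difference farthest from 0 among the members. It was covered by 65.4 ± 37.7% without vitamin C and 95.3 ± 11.6% with it (SD, n = 6 each), a difference of -29.9 points (exact p = 0.1, adjusted p = 0.812). It was -19.5 points without replicate 2 of B6 without vitamin C and -38.7 points without replicate 4 of that group. Its exact p was 0.04 without replicate 1 or replicate 3 of 129 without vitamin C, and its adjusted p lay between 0.456 and 1 over the alternatives run. Hoxb4 had the difference nearest to 0, with 76.7 ± 39.4% without and 80.3 ± 40.0% with vitamin C (-3.58 points, exact p = 0.8, adjusted p = 0.998). Its sign turned with single libraries, from -18.7 points without replicate 1 of B6 with vitamin C to 12.4 points without replicate 1 of B6 without vitamin C, the 2 libraries at 0%. The other 5 members differed by -15.7 to -10.2 points, with exact p of 0.3 to 0.45. Without replicate 1 of B6 without vitamin C, the differences were -0.565 points at Hoxa5, -1.55 at Hoxd4, -1.70 at Hoxb5 and -7.50 at Hoxc4. That of Hoxc5 was -8.63 points without replicate 2 of the same group.

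Within a background 3 libraries were set against 3, where the smallest possible two-sided p is 0.1. The 3 B6 libraries with vitamin C came under 1 pregnancy code, and those without it under separate codes. A difference between pregnancies therefore cannot be told apart from diet in B6, and the 3 embryos with vitamin C are not independent units of diet. In B6 Hoxa4 was covered by 41.4 ± 38.7% without and 90.6 ± 16.4% with vitamin C (-49.1 points, exact p = 0.2), and Hoxc5 by 64.1 ± 32.8% and 95.5 ± 7.76% (-31.4 points, exact p = 0.4; SD, n = 3 each). Hoxb4 differed the other way, by 3.31 points (exact p = 1), and the other 4 members by -21.9 to -11.8 points. In 129 the differences were -10.7 to -5.34 points at 6 members and 0 at Hoxc5, all with exact p = 1. They came from replicate 2 without vitamin C, the single 129 library below 100%. With all other values at 100%, every relabelling gives a difference of the same size. The p in 129 was therefore fixed whatever the value of that library, and it cannot decide whether diet mattered there. In neither background did the values of the diets stand apart without overlap at any member, which they did, lower without vitamin C, at 3.11% of all genes tested in B6 and 3.82% in 129.

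**Figure D4:**
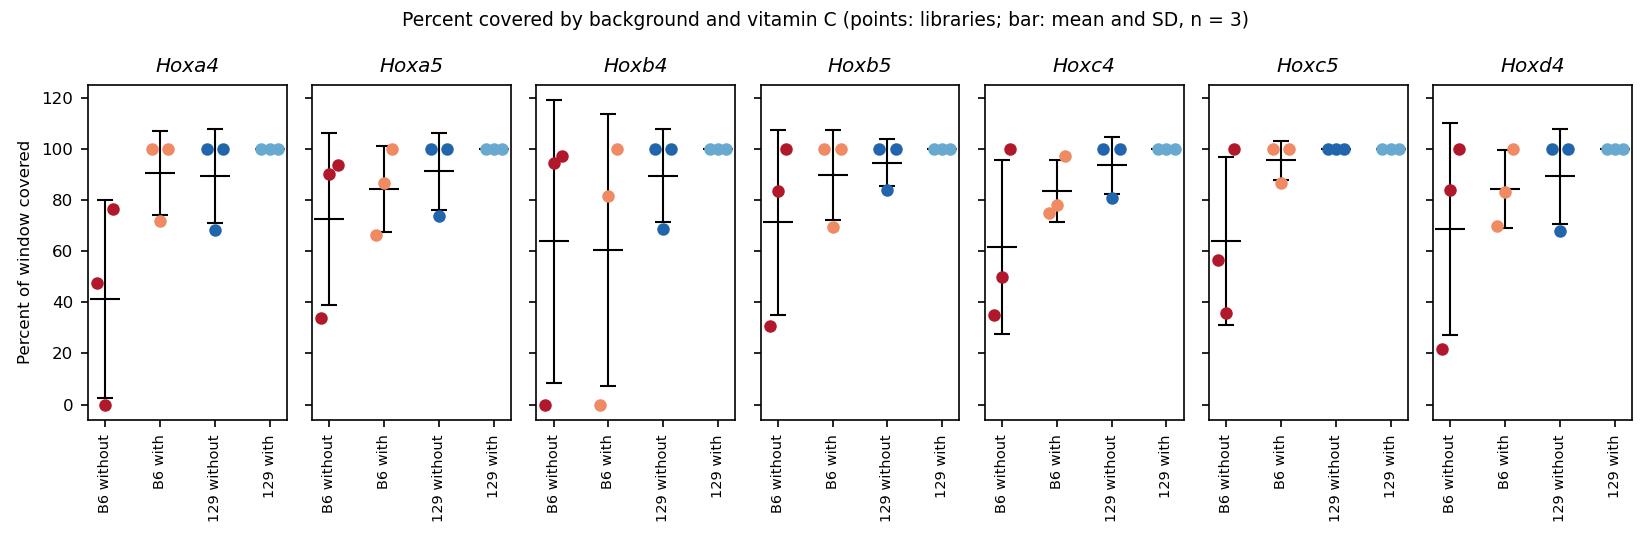
Percent of the window covered for each gene by background and vitamin C, with points for the single libraries, horizontal lines for the mean and bars for the SD (n = 3; bars can pass 100, the highest possible value). The B6 libraries without vitamin C are the most spread, and the 129 libraries with vitamin C are all at 100%.

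The diet difference in 129 minus that in B6, tested by the same permutation, ran from -13.8 points at Hoxb4 to 38.6 points at Hoxa4 (exact p = 0.7 and 0.35). It passed the adjusted threshold at 0 of 7 members (0.0% of all genes) and an unadjusted p under 0.05 at 0 of 7 (0.102% of all genes), and the adjusted p was 1 at each. The difference was above 0 at 6 members, and of all genes tested 32.2% were below 0.

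Mean percent covered was lower in B6 than in 129 at all 7 members, which was so for 89.8% of all genes tested. None of the 7 members passed after adjustment (0.0% of all genes), and 1, Hoxc4, had an unadjusted p under 0.05, as 16.8% of all genes did. Hoxc4 was covered by 72.5 ± 25.8% in B6 and 96.8 ± 7.87% in 129 (SD, n = 6 each), a difference of -24.3 points (exact p = 0.035, adjusted p = 0.256). Its unadjusted p stayed under 0.05 without replicate 4 of B6 without vitamin C (0.005) or replicate 4 of B6 with vitamin C (0.035), and was 0.065 to 0.125 without any other single library. With embryos of 1 pregnancy code averaged, its unadjusted exact p was 0.0875. Its adjusted p ran from 0.143 to 0.637 over the alternatives. The members' share of 1 in 7 stood beside a similar share of all genes.

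The largest background difference in points was at Hoxb4, with 62.3 ± 48.6% in B6 and 94.8 ± 12.8% in 129 (-32.5 points, exact p = 0.22, adjusted p = 0.376). Without replicate 1 of B6 without vitamin C it was -16.5 points, and without replicate 1 of B6 with vitamin C it was -17.4 points. Hoxa4 had 66.0 ± 37.8% in B6 and 94.7 ± 12.9% in 129 (-28.7 points, exact p = 0.1, adjusted p = 0.282), and -18.4 points without replicate 2 of B6 without vitamin C. The other 4 members differed by -20.2 to -16.7 points with exact p of 0.16 to 0.2. Without replicate 1 of B6 without vitamin C, the differences were -6.40 points at Hoxd4, -7.44 at Hoxa5 and -6.52 at Hoxb5. That of Hoxc5 was -13.1 points without replicate 2 of the same group. The median over the members was -20.2 points, beside -7.23 over all genes tested, whose median cover was 12.0% against 85.6% for the members. Total covered length was 3.58 to 26.97 Mb in B6 and 6.97 to 31.7 Mb in 129, and its part in the difference was not tested.

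Beside the other Hox genes, the members had similar levels over all libraries. The median over genes of the mean percent covered was 85.6 for the 7 members, 80.9 for the 8 genes of groups 1 to 3, 79.3 for the 8 of groups 6 to 8 and 81.7 for the 16 of groups 9 to 13. In the sparse replicate 2 of 129 without vitamin C the medians were 73.8% for the members, 43.8% for groups 1 to 3, 41.2% for groups 6 to 8 and 52.2% for groups 9 to 13. In replicate 2 of B6 without vitamin C they were 83.6%, 65.9%, 54.2% and 61.6% in the same order. The members' medians were above those of the other groups in these 2 libraries, as a description with no test, since genes of a cluster share peaks. In replicate 1 of B6 without vitamin C the members stood at 33.9%, between 29.4% for groups 1 to 3 and 37.9% for groups 9 to 13. Groups 9 to 13 were also above the members in replicate 2 of B6 with vitamin C (83.2% against 81.8%). In replicate 1 of B6 with vitamin C they were nearly level (74.2% against 74.8%). In replicate 4 of both B6 groups and the other 129 libraries every median was 100%, except 87.4% for groups 1 to 3 in B6 without vitamin C.

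**Figure D5:**
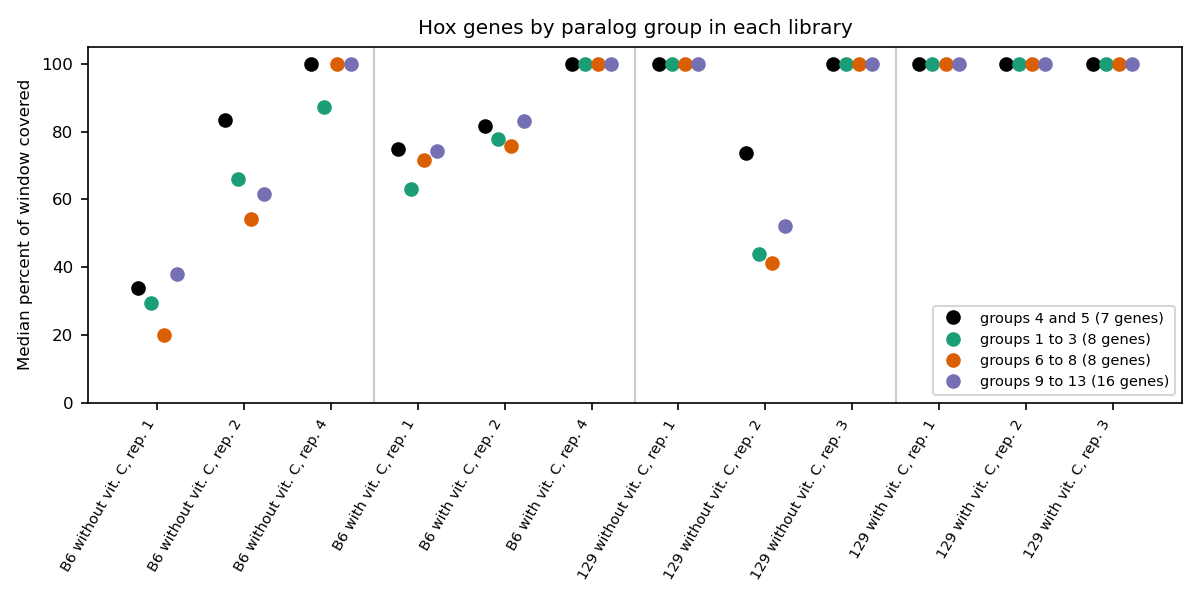
Median percent of the window covered over the genes of each set of Hox paralog groups, by library, with 7 genes in groups 4 and 5 (black), 8 in groups 1 to 3 (green), 8 in groups 6 to 8 (orange) and 16 in groups 9 to 13 (purple). In replicate 2 of 129 without vitamin C the black point lies at 73.8% and the others between 41.2% and 52.2%. In replicate 2 of B6 with vitamin C the purple point (83.2%) lies above the black point (81.8%).

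Of 16 genes known to act upstream of Hox clusters, 10 had a peak in at least 10 libraries, beside 5.93% of protein-coding genes. Among them were Cdx1, Cdx2 and Cdx4, homeobox factors that open Hox clusters in the posterior axis, with a mean percent covered of 22.3 ± 13.2, 90.6 ± 21.5 and 37.4 ± 27.8 (SD, n = 12). Egr2 (71.1 ± 32.9%), a hindbrain segment factor, was also marked, as were the retinoic acid degrading enzymes Cyp26a1 (56.1 ± 34.0%), Cyp26b1 (52.4 ± 28.4%) and Cyp26c1 (65.8 ± 45.9%) and the growth factor Fgf8 (66.4 ± 40.0%). Aldh1a2, which makes retinoic acid, was marked in 10 libraries over 3.92 ± 2.66% of its window. The retinoic acid receptor genes Rara, Rarb and Rarg were marked in 1, 3 and 0 libraries, and Kmt2a and Kmt2d, which methylate H3K4, in 3 and 0. Of 9 genes of Hox cofactors only Meis1 was marked in at least 10 libraries, and Pbx2, Pbx3, Pbx4, Meis2, Meis3, Pknox1 and Pknox2 were among those marked in 0.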

How the data were processed

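Peak lists of 12 H3K27me3 CUT&Tag libraries were analysed, while 4 IgG samples and 2 more B6 samples of the mark were not analysed here. The processing used cutadapt, Bowtie2, Picard and SEACR with the build mm10, per the submitters' processing notes, and for versions, settings and the use of IgG in peak calling, nothing is given in the sources used here. Each list was deposited by the authors with 1 library's peaks in 6 columns, among them a total and a maximum signal per peak, and these signal values are the authors' own, show no scaling to a common depth and were used only for ranks and a filter within a list. Depth per library is unknown, and so is the precision it gives. The number of table columns left unused because they matched no sample was 0.

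Gene spans came from RefSeq (GRCm38.p6), with all 7 members matched and 4 of 7 found in the promoter table. Percent covered, presence, width and rank were computed per library, and exact permutations were run over the 4924 genes covered in at least 2 libraries (400 relabellings, smallest possible p 0.005), with code tested on simulated data. The p-values measure the spread between these embryos, some of which share a pregnancy code. All members are named, along with overlapping genes, list members marked in at least 10 or in 0 libraries, and the 3 genes most like each member. Some genes this rule covers are not reported here. Rara, Rarb and Kmt2a fall outside this rule and were named after their values were seen. The members and lists were chosen with earlier results of these data known. Alternatives were other windows, peak filters, equal lists, joined peaks, other permutation units and omission of single libraries, and omission of the 2 libraries with short peaks was chosen after seeing the data. The tools were NumPy 2.4.6 and pandas 2.3.3 under Python 3.11.15, with figures from Matplotlib 3.10.9.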

Additional observations from a re-analysis of the deposited data

Results flagged for a closer look

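Each member's values were examined in 4 groups of 6 libraries (each background, each diet), 28 groups in all, for a highest or lowest library that stood far from the others of its group. There were 12 such values. Chance flags about 1 in 20 groups of values that can vary freely, but percent covered cannot pass 100%, and where the other 5 libraries are at 100% any lower value is picked out whatever its size. Members of a cluster also share peaks, so the 12 are not independent of each other and their number cannot be read against that rate. No cause was tested.

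In 129, replicate 2 without vitamin C was the low library at 6 members, with 68.3% at Hoxa4, 68.6% at Hoxb4, 80.7% at Hoxc4, 67.8% at Hoxd4, 73.8% at Hoxa5 and 84.0% at Hoxb5, where the other 5 libraries were at 100%. Its list covered 6.97 Mb, the least of the 129 lists.

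Among the libraries with vitamin C, replicate 2 of B6 was low at Hoxa4 (71.7%), Hoxb5 (69.5%) and Hoxc5 (86.6%), where the other 5 were at 100%, and replicate 1 of B6 was low at Hoxb4 (0%). Among the libraries without vitamin C, replicate 1 of B6 was low at Hoxb4 (0%) and at Hoxb5 (30.7%).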

How the results depend on the processing

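The number of members past the adjusted threshold stayed at 0 for diet, background and their interaction under every alternative run. In the main tests the smallest possible p was 0.005 over 4924 genes, so a gene could pass only if many others reached that p too. A count of 0 therefore says little about any single member. The diet difference of Hoxb4 was 17.7 points and that of Hoxa5 0.019 points without the 2 libraries of short peaks, and with single libraries left out that of Hoxb4 ran from -18.7 to 12.4 points. The diet difference in 129 minus that in B6 turned its sign when peaks under the median maximum signal of each list were dropped at Hoxd4 (-12.3) and Hoxb5 (-9.43), with equal lists at Hoxa5 (-39.2), with peaks less than 5 kb apart joined at Hoxd4 (-12.8) and with no window at Hoxa5 (-2.58). Without the 2 libraries of short peaks it was -17.9 at Hoxd4 and -17.5 at Hoxa5. Over omissions of single libraries it ran from -18.4 to 20.8 at Hoxd4, -16.3 to 13.6 at Hoxa5, -7.29 to 27.3 at Hoxb5 and -45.7 to 16.5 at Hoxb4. The background difference kept its direction at all 7 members under every alternative run. Its count at an unadjusted p under 0.05 was 0 with joined peaks, 2 with a window of 2.5 kb, 0 without the 2 libraries of short peaks and 0 to 1 over omissions of single libraries; the diet count was 0 to 1 over the same omissions. With embryos of 1 pregnancy averaged, the member at an unadjusted p under 0.05 for background was Hoxa4 in place of Hoxc4. Members marked in all but at most 2 libraries numbered 4 with equal lists of 748 peaks. The cause was not tested. No paired analysis was possible because replicate numbers follow accession order and pair no embryos. Unknown depth limits all of these values, since shorter lists can follow fewer reads as well as less of the mark.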

Other observations

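The 3 protein-coding genes outside the Hox clusters whose percent covered was most like that of each member over the 12 libraries were found by the mean absolute difference in percentage points. Hoxc5 was followed most closely by Mafa (0.332 points), Osr1 (2.99) and Rasl10a (2.99), and Hoxb5 by Skor1 (0.603), Hsd17b1 (1.97) and Cdx2 (2.11). Hoxc4 was followed by Osr2 (2.69), Wnt1 (3.10) and Neurod2 (3.57), and Hoxa4 by Entpd2 (3.10), Nkx2-3 (3.85) and Olig1 (4.22). Nkx2-5, a heart homeobox gene, was most like Hoxa5 (2.69, before Barhl1 at 4.01 and Irx4 at 4.05) and most like Hoxd4 (2.90, before Adm at 3.22 and Wnt10b at 4.22). The genes nearest to Hoxb4, Wnt10b (9.59), Nkx2-5 (9.82) and Npw (9.90), were farther from it than those of the other members. All values share the libraries' list lengths, and the likeness is a description with no test.

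The position of a peak's highest signal fell within the Hoxc4 window in 8 of 12 libraries, within those of Hoxd4 and Hoxa5 in 5 each, Hoxb5 and Hoxc5 in 4 each and Hoxa4 and Hoxb4 in 3 each. The Hoxc4 window is the longest, at 20760 bp, and that of Hoxa4 the shortest, at 4022 bp. A peak lying within a window also has its highest signal there, so the counts depend on peak width too. In 129 with vitamin C, where the strongest peaks at members were 62.2 to 172.3 kb wide, no window held such a position.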
